A study of Mus musculus with 12 samples.

Results

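The mTOR signalling core is taken here as 9 genes: the kinase gene Mtor, the scaffold genes Rptor and Rictor, the inhibitor genes Tsc1, Tsc2 and Akt1s1, the activator gene Rheb, and the S6 kinase genes Rps6kb1 and Rps6kb2. They were chosen by name, and all 9 were found among the 24421 gene symbols of the files and passed the filter on low counts. RNA that pelleted through a 1 M sucrose cushion with polyribosomes was sequenced from the hippocampus of C57/Bl6 mice aged 6 weeks. The labels give 6 control and 6 fear case libraries, with no genotype difference and no drug in either group. One protocol text covers all libraries. It describes single housing, 8 min in an unfamiliar context and 7 min back in the home cage, with collection 15 min after the exposure began. The labels do not say what the control mice experienced or whether any mouse received a shock. Libraries are numbered within each group in the titles, and nothing ties a number to 1 mouse. Every p-value therefore reflects only how far these samples spread, which may be technical.

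mTOR is a serine/threonine kinase that works in 2 complexes. In mTORC1 it is held by raptor (Rptor) and promotes protein synthesis through the S6 kinases and the 4E-BP translation repressors. In mTORC2 it is held by rictor (Rictor) and phosphorylates AKT and related kinases. The GTPase RHEB switches mTORC1 on, the TSC1-TSC2 complex switches RHEB off, and PRAS40 (Akt1s1) restrains mTORC1 until AKT phosphorylates it. In the hippocampus the pathway is known for its part in the protein synthesis that long-lasting synaptic plasticity and memory need. It is controlled largely by phosphorylation, which RNA counts do not measure.

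None of the 9 genes passed the test between fear case and control (quasi-likelihood test of edgeR, Benjamini-Hochberg adjusted over 14564 genes), in which 0.103% of all tested genes were called. The largest difference upward was that of Mtor, at 1.10-fold, and the largest downward that of Rps6kb2, at 0.876-fold. Both rest in part on single libraries: without fear case 1 the log2 fold change of Mtor was 0.08 in place of 0.13, under that of Rictor at 0.09, and that of Rps6kb2 was -0.32 in place of -0.19. Without fear case 3, Rps6kb2 stood at -0.09. With the same test 0 of the 9 had an unadjusted p under 0.05, against 7.14% of all tested genes, and 0 of the 9 were called by DESeq2 (0.397% of all tested genes) or by limma-voom (0.0824%). For none of them did the 6 fear case and 6 control libraries separate without overlap, which 0.597% of tested genes did. The log2 fold change was positive for 5 members and negative for 4, with a median of 0.06, beside a median of -0.0046 over all tested genes. Most members have long transcripts, and the median was 0.047 over the longest of 5 bins of transcript length. For 7 of the 9 the whole 95% interval of the fold change lay between 0.8-fold and 1.25-fold. The exceptions were Mtor, whose interval reached 1.26-fold, and Rps6kb2, whose interval went down to 0.681-fold.

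**Figure D1:**
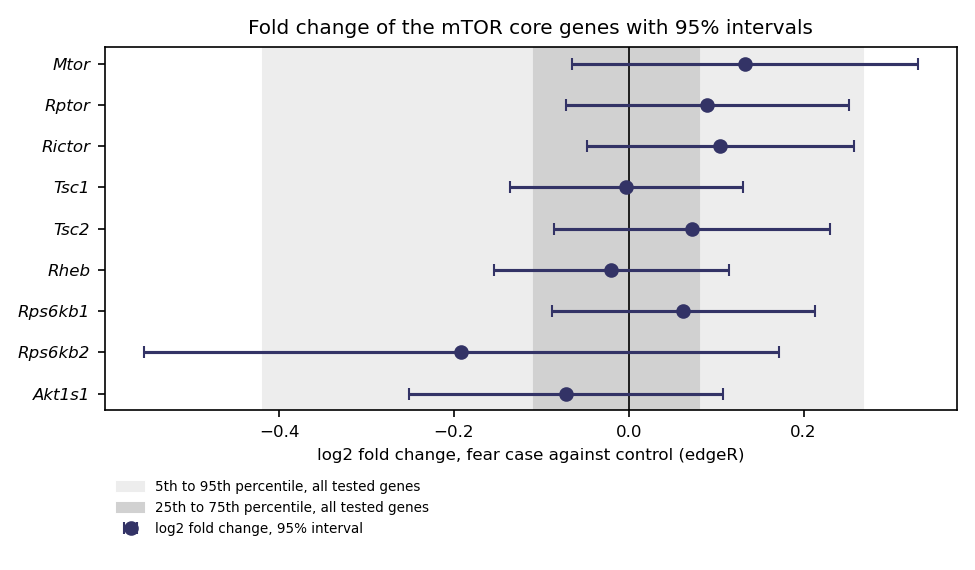
Log2 fold change (x axis) of each of the 9 genes in fear case against control, with its 95% interval, over grey bands for the 25th to 75th and 5th to 95th percentiles of all 14564 tested genes. Every interval crosses 0, and the interval of Rps6kb2 is the widest.

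Counts assigned to genes ran from 18.6 M to 44.2 M per library (median 21.6 M), and the 9 genes together took 0.0617% to 0.0736% of them. Fear case 6 was the deepest library, ahead of the next at 24.2 M, and 12.5% of its counts fell on the ribosomal RNA precursor Rn45s, against at most 7.98% elsewhere. Neuron markers (8 genes such as Snap25 and Camk2a) summed to 8052 to 8787 CPM (counts relative to library size, after scaling) in controls and 8274 to 8674 CPM in fear case. Choroid plexus markers were lower in 5 of the 6 fear case libraries: 12 of 12 had a negative log2 fold change, 0 of 12 passed over all genes (lowest edgeR adjusted p = 0.218), and their sum was 1029 to 2859 CPM in controls, 95.04 to 559 CPM in fear case 1 to 5 and 2140 CPM in fear case 6. Folr1, Aqp1, Otx2 and Slc4a5 were at 0 counts in at least 1 library. Markers of ependyma, the ciliated lining of the ventricles, summed to 31.4 to 40.1 CPM in controls and 22.001 to 26.7 CPM in fear case, fear case 6 included. Of 5 tested ependyma markers, 4 had a negative and 1 a positive log2 fold change (at most 0.12). Only 1 passed, the cilia gene Tekt1 (log2 fold change -1.02, edgeR adjusted p = 0.0483), while Tmem212 was not tested. The part of ependyma in the mTOR gene values was not tested. With a covariate for choroid plexus (a score of its markers) 0 of the 9 mTOR genes were called (0.0343% of all tested genes). Without fear case 6 it was also 0 (0.873%). That score ran from 3.93 to 5.01 in controls and from -0.575 to 3.07 in fear case 1 to 5. Only fear case 6, at 4.63, lay in the control range, so score and group are hard to separate in that fit. In bulk tissue, fewer cells of a type and less RNA per cell cannot be told apart.

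Mtor, which encodes the kinase itself, lies on chromosome 4 (148448611 to 148557683, plus strand; GRCm38), with 58 exons in the transcript that has its longest coding sequence. Its controls ran from 100.5 to 141 CPM with a median of 114, and its fear case libraries from 107 to 152 CPM with a median of 129. Fear case 1 and fear case 3 stood above all controls, while fear case 2, 4 and 5 lay inside the control range, as did fear case 6. The group means were 118 ± 16.2 and 129 ± 18.2 CPM (SD, n = 6 each). The log2 fold change was 0.13 (SE 0.095, edgeR adjusted p = 0.798), with a 95% interval from -0.065 to 0.33.

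Rptor, the scaffold that brings substrates to mTORC1, lies on chromosome 11 (119602905 to 119899576, plus strand). Controls ran from 53.7 to 76.2 CPM with a median of 60.1, and fear case from 62.2 to 71.8 CPM with a median of 64.7. All 6 fear case libraries were above the control median, yet none was above the highest control, control 6. Its log2 fold change was 0.09 (SE 0.078, edgeR adjusted p = 0.838). Without control 6, which stood at 76.2 CPM, it was 0.16 with an adjusted p of 0.561.

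Rictor, the scaffold that defines mTORC2, lies on chromosome 15 (6708379 to 6800401, plus strand). Its control libraries ranged from 74.0 to 91.3 CPM (median 83.3) and its fear case libraries from 78.0 to 98.4 CPM (median 91.1). Fear case 1, 3 and 6 were above all controls, and fear case 2 and 5 were among the lowest of the 12. Fear case against control gave a log2 fold change of 0.10 (SE 0.074, edgeR adjusted p = 0.795), which is the lowest adjusted p among the 9 genes.

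The genes of the TSC complex, the brake on RHEB, differed less than their spread. Tsc1, the stabilising partner hamartin, on chromosome 2 (28641228 to 28691167, plus strand), had control values from 75.7 to 95.01 CPM (median 83.7). Its fear case values fell within 82.3 to 88.5 CPM (median 84.0), inside the control range throughout. The fear case mean was 84.4 ± 2.30 CPM and the control mean 84.6 ± 6.28 CPM (SD, n = 6 each), and the 95% interval of the fold change was 0.910 to 1.09. Tsc2, the GTPase-activating partner tuberin, on chromosome 17 (24595816 to 24632630, minus strand), ran from 94.0 to 123 CPM in controls (median 99.5) and from 96.2 to 125 CPM in fear case (median 106). Control 6 and fear case 1 were each well above the rest of their group. For Tsc2 the log2 fold change was 0.07 (SE 0.076, edgeR adjusted p = 0.869), with a fold change interval of 0.943 to 1.17. Exons of Tsc2 overlap those of Pkd1 on the opposite strand over 7.20% of its merged exon length, and the strand setting of the counting is not known from the labels.

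Rheb, the small GTPase that activates mTORC1, lies on chromosome 5 (24802823 to 24842624, minus strand). Its coefficient of biological variation in the fit was 8.27%, close to the 8.21% of Tsc1. The highest Rheb value over the 12 libraries was 1.17 times the lowest, the smallest such ratio of the 9. Controls ran from 78.7 to 91.8 CPM (median 85.2) and fear case from 79.7 to 88.7 CPM (median 83.5), so every fear case library lay within the control range. Its log2 fold change was -0.020 (SE 0.065, edgeR adjusted p = 0.973), with a fold change interval of 0.899 to 1.08.

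Akt1s1, which encodes the mTORC1 inhibitor PRAS40, lies on chromosome 7 (44848991 to 44855421, plus strand). It had 39.5 to 51.3 CPM in controls (median 44.8) and 36.8 to 50.4 CPM in fear case (median 43.7). Fear case 3 and 6 were below all controls and the other 4 were inside the control range. Akt1s1 had a log2 fold change of -0.07 (SE 0.087, edgeR adjusted p = 0.898), with a fold change interval of 0.840 to 1.08.

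The S6 kinases carry the mTORC1 signal to ribosomal protein S6 and to translation factors. Rps6kb1, which encodes S6K1, lies on chromosome 11 (86498871 to 86544805, minus strand). It ran from 59.2 to 74.9 CPM in controls (median 65.7) and from 63.4 to 74.2 CPM in fear case (median 69.6), with all fear case libraries inside the control range. Its log2 fold change was 0.06 (SE 0.073, edgeR adjusted p = 0.893), with a fold change interval of 0.941 to 1.16.

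Rps6kb2, which encodes the related kinase S6K2, lies on chromosome 19 (4153991 to 4163354, minus strand) and was the least abundant and most variable member, at 74 to 201 counts per library. Controls ran from 5.31 to 7.64 CPM (median 7.09) and fear case from 3.87 to 8.55 CPM (median 5.90). Fear case 3, 4 and 6 were below all controls, whereas fear case 1 was above all of them. The log2 fold change was -0.19 (SE 0.18, edgeR adjusted p = 0.849). Its coefficient of biological variation in the fit was 20.3%, against 8.21% to 11.9% for the other 8 genes. The 3321 tested genes between 40 and 130 CPM had a median of 9.85%, but Rps6kb2 averaged only 6.47 CPM. Genes at its own level were not set beside it, so 20.3% is not shown to be unusual for its abundance. Exons of Ptprcap on the opposite strand cover 23.7% of the merged exon length of Rps6kb2. Its counts are therefore uncertain where the counting could not assign a read to 1 gene. Overlaps with an opposite-strand gene were smaller for Akt1s1 (Tbc1d17, 2.90%), Rps6kb1 (Rnft1, 1.79%) and Rptor (Rptoros, 0.624%), and none was annotated for Mtor, Rictor, Tsc1 or Rheb. The share of 40-base windows that also occur, on either strand, in transcripts of other genes was 24.5% for Rps6kb2 and 2.82% for Akt1s1. It was 2.11% for Rps6kb1, 1.43% for Rheb and under 1% for the other 5 genes. Those of Rps6kb2 were shared with Ptprcap and Coro1b, those of Akt1s1 with Tbc1d17 and those of Rps6kb1 with Rnft1. All of these are opposite-strand neighbours, so the shares reflect the same overlaps.

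**Figure D2:**
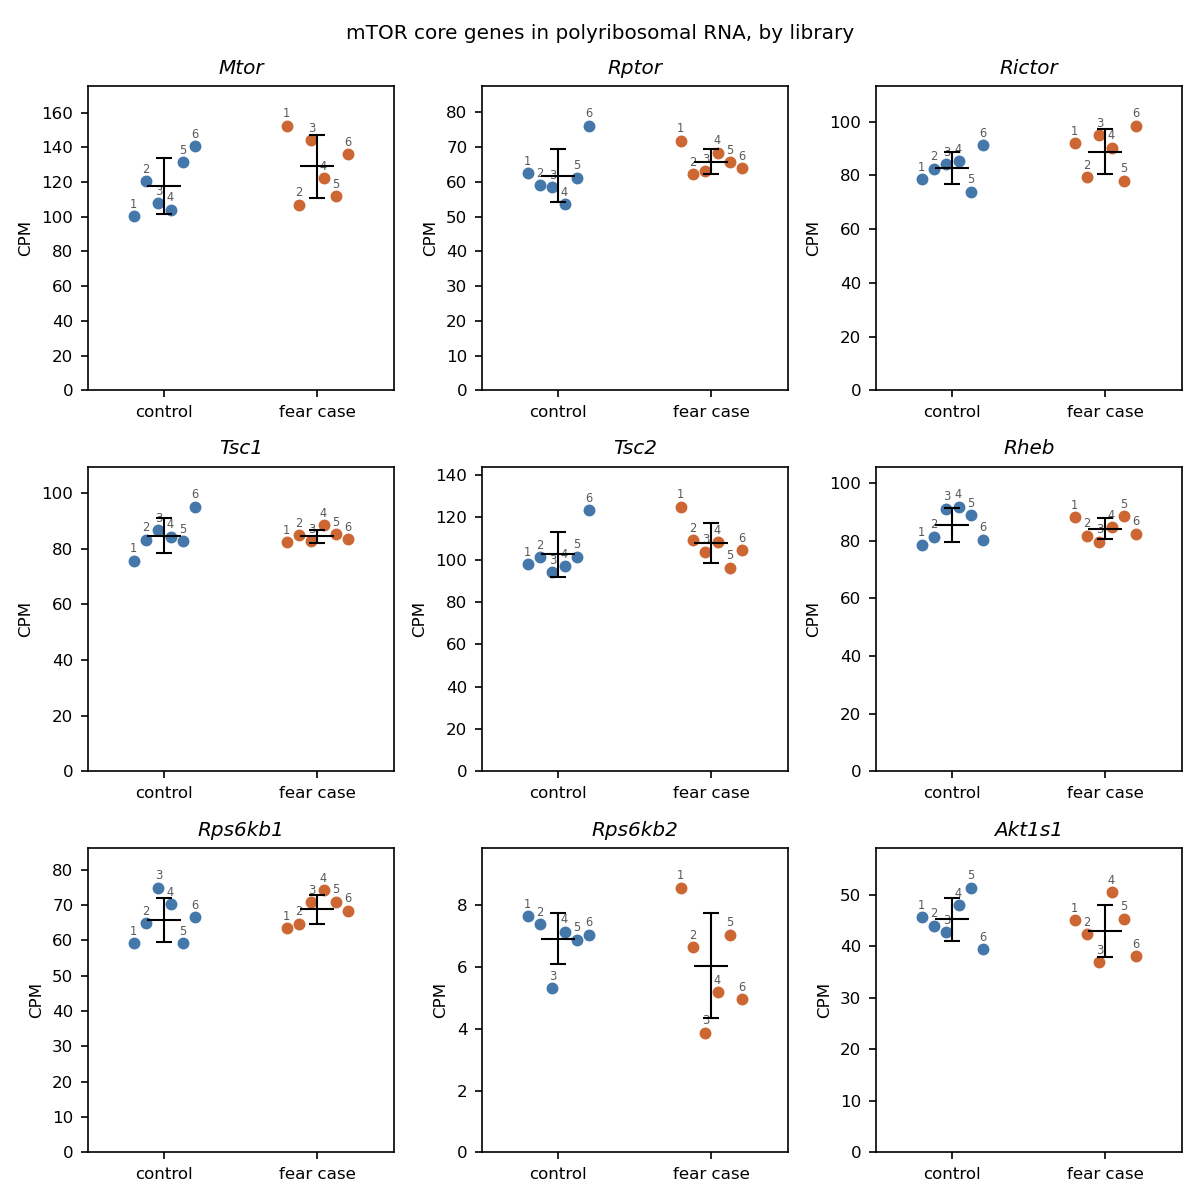
CPM (y axis, from 0) of each mTOR core gene in the 6 control and 6 fear case libraries, numbered as in the titles; black marks give the mean and SD. Points of the groups overlap in all 9 panels, and the ratio of highest to lowest value is smallest for Rheb and largest for Rps6kb2.

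Per kilobase of the transcript with the longest coding sequence, Rheb had the highest level over the 12 libraries, at 47.6 ± 2.63 CPM per kb (SD, n = 12). Akt1s1 followed at 24.3 ± 2.51, Tsc2 at 18.8 ± 1.79 and Mtor at 14.4 ± 2.04 CPM per kb. Rps6kb1 stood at 12.2 ± 0.942, Tsc1 at 10.97 ± 0.585, Rptor at 9.68 ± 0.922 and Rictor at 9.21 ± 0.821 CPM per kb. Rps6kb2 came last at 1.41 ± 0.293 CPM per kb. Only Rheb at the top and Rps6kb2 at the bottom had ranges apart from their neighbour; the other neighbours in the order overlapped. Rptor and Rictor were the closest, with Rptor the higher in 8 of 12 libraries and means that differed by less than their SDs.

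The order depends on the length used. Over all annotated exons merged, Akt1s1 came first at 14.4 CPM per kb, ahead of Mtor at 12.2, Rheb at 10.99 and Tsc2 at 10.9, and Rps6kb2 was again the lowest at 1.25. On that scale Akt1s1 was above 77.2% of 14001 tested genes with a length, Rheb above 71.1%, Rptor above 50.2% and Rps6kb2 above 24.1%. RNA for 8 of the 9 components thus stood at or above the middle of the tested genes, with the second S6 kinase gene well under it.

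**Figure D3:**
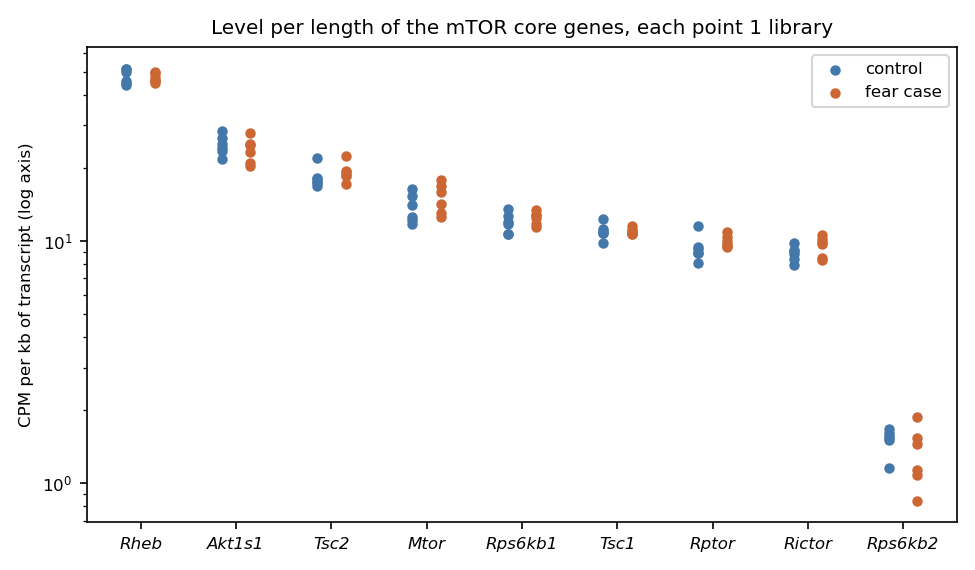
Level per length of the 9 genes in CPM per kb of transcript (y axis, log scale), ordered from highest to lowest, each point 1 library. Rheb sits apart at the top and Rps6kb2 apart at the bottom, and control and fear case points overlap for every gene.

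Ratios of counts within a library do not depend on how libraries are scaled, and 6 pairs with opposed or parallel roles were tested by exact permutation (two-sided, every relabelling of the 12 libraries). The smallest possible p was 0.00216, and none of the 6 passed after adjustment. The raptor to rictor count ratio, Rptor to Rictor, had a median of 0.755 in controls (0.629 to 0.834) and 0.769 in fear case (0.649 to 0.841), a difference in mean log2 ratio of -0.0051 (SE 0.089, exact permutation p = 0.950, adjusted p = 0.950). The groups covered nearly the same range. The ratio Tsc1 to Tsc2 had a median of 0.819 in controls and 0.797 in fear case (difference in mean log2 ratio -0.07, SE 0.070, exact permutation p = 0.340, adjusted p = 0.455). The count ratio of Rps6kb1 to Rps6kb2 ran from 7.75 to 14.1 in controls and from 7.41 to 18.3 in fear case. For that pair of S6 kinases, the difference in mean log2 ratio was 0.30 (SE 0.23, exact permutation p = 0.221, adjusted p = 0.455), with 5 of 6 fear case libraries above the control median. It was 0.17 without fear case 3 and 0.43 without fear case 1.

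The ratio Mtor to Rheb, kinase to activator, ran from 1.13 to 1.75 in controls and from 1.26 to 1.81 in fear case (difference in mean log2 ratio 0.15, SE 0.13, exact permutation p = 0.273, adjusted p = 0.455). Rheb to Tsc2, the GTPase against its inhibitor, had medians of 0.842 and 0.775 (difference -0.09, SE 0.10, exact permutation p = 0.379, adjusted p = 0.455). Akt1s1 to Rptor, inhibitor to scaffold, gave the lowest p of the 6. Its median was 0.738 in controls (0.518 to 0.894) and 0.653 in fear case (0.585 to 0.737), and all 6 fear case libraries lay below the control median (difference -0.17, SE 0.12, exact permutation p = 0.190, adjusted p = 0.455). Control 6 had the lowest ratio of all 12 libraries. Without it the difference was -0.27, with an adjusted p of 0.0519 by the exact permutation test. Leaving out any other single library gave an adjusted p from 0.239 (without fear case 5) to 0.818 (without fear case 1) by the same test. Mtor to Rheb, Rheb to Tsc2 and Akt1s1 to Rptor each set a longer transcript against a shorter one. Over all genes the median log2 fold change was -0.065 in the shortest of 5 length bins, which holds Rheb and Akt1s1. It was 0.047 in the longest, which holds Mtor, Tsc2 and Rptor. How far length bears on these ratios was not tested.

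**Figure D4:**
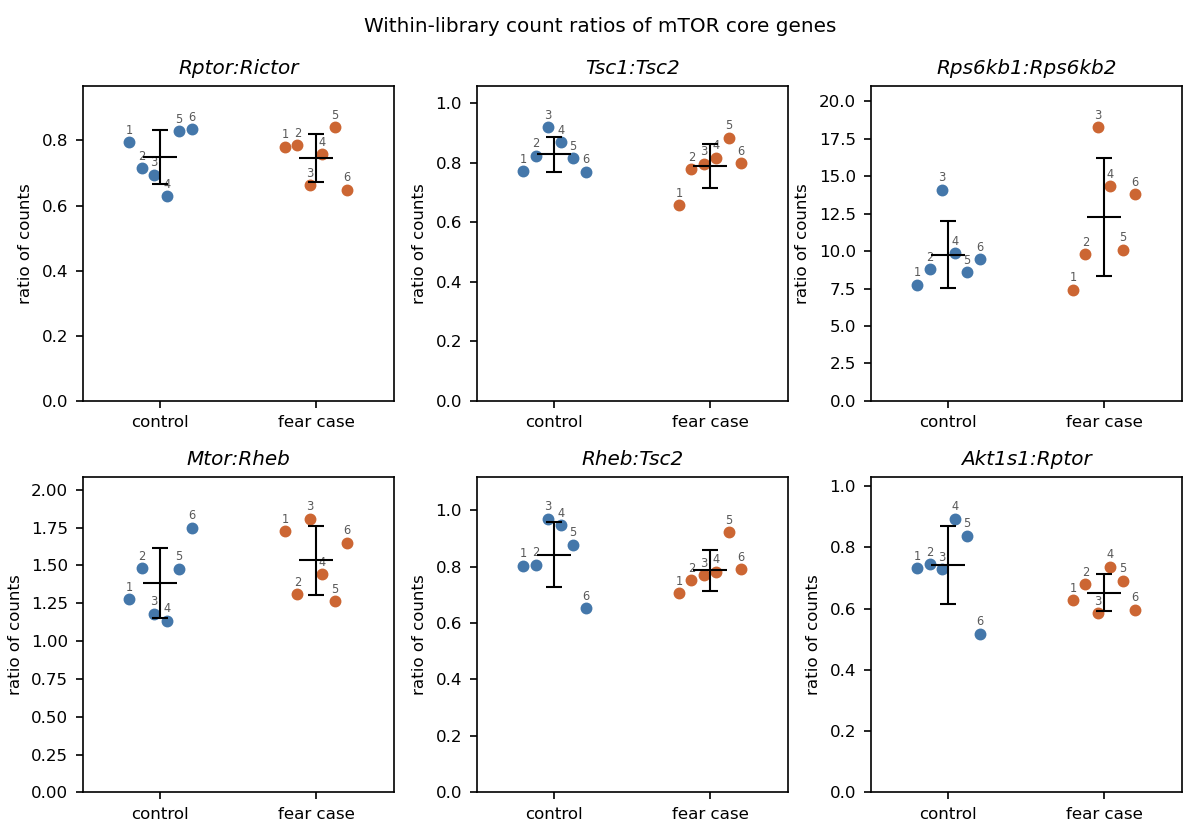
Ratio of raw counts (y axis, from 0) for 6 pairs of mTOR core genes in each library, with mean and SD per group. All 6 pairs overlap between groups; for Akt1s1 to Rptor, control 6 is the lowest point.

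Likeness to Mtor over the libraries was read for 7 of the other 8 genes, since Rps6kb2 averaged under 10 CPM. Across the 12 libraries, Pearson's r of log2 CPM with Mtor was 0.70 for Tsc2, 0.62 for Rptor, 0.61 for Rictor and 0.27 for Tsc1. It was -0.07 for Rps6kb1, -0.17 for Rheb and -0.36 for Akt1s1. These values are a description of 12 libraries that share their scaling, without a test. Of 9361 tested genes that averaged 10 CPM or more, Tsc2 ranked 487, Rptor 776, Rictor 823 and Tsc1 2718 by r. Rps6kb1 ranked 5293, Rheb 6141 and Akt1s1 7828. Of these members, Rheb and Akt1s1 have short transcripts and the others long ones, and the part of length in r was not tested. The genes most like Mtor were Sec31a (r = 0.961), Ppp2r5e (r = 0.961) and Prpf8 (r = 0.960). Their log2 fold changes were 0.04 for Sec31a, 0.10 for Ppp2r5e and 0.11 for Prpf8, none of which passed (edgeR adjusted p = 0.944, 0.791 and 0.852).

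Around this core, 7 lists of other pathway genes were read from the same test. All 104 listed genes were tested, 0 rose and 0 fell (0.103% of all tested genes were called), and DESeq2 and limma-voom also called 0. An unadjusted p under 0.05 was found for 7 of the 104, against 7.14% of all tested genes, and the median log2 fold change was 0.0020, against -0.0046 over all tested genes. Among 8 other complex subunits and assembly factors the median was 0.06. Deptor, an inhibitory subunit of both complexes, went from 30.3 ± 6.05 to 25.9 ± 3.83 CPM (log2 fold change -0.22, SE 0.12, edgeR adjusted p = 0.742). Tti2, part of a chaperone complex for mTOR-family kinases, had a log2 fold change of 0.16 (SE 0.11, edgeR adjusted p = 0.787). With the choroid plexus covariate, which is hard to separate from group, these values were -0.06 for Deptor (adjusted p = 0.957) and 0.05 for Tti2 (adjusted p = 0.963). Of the genes named below, Sgk3 and Rragb also moved towards 0 with it. Others moved away from 0, such as Akt1 (from -0.15 to -0.26) and Rb1cc1 (from 0.27 to 0.39).

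Of 18 genes that bring growth factor signals to mTOR through PI3K and AKT, 12 had a positive and 6 a negative log2 fold change, with a median of 0.02. Akt1, the kinase that inactivates TSC2 and PRAS40, went from 146 ± 16.9 to 132 ± 9.27 CPM (log2 fold change -0.15, SE 0.077, edgeR adjusted p = 0.728). Phlpp1, a phosphatase that acts on AKT, had a log2 fold change of 0.14 (edgeR adjusted p = 0.738). Among 19 TSC partners, RHEB relatives and stress inhibitors the median was -0.023, with 7 positive and 12 negative. The lowest p-values there were those of Prkaa1 and Prkag2. They are among the listed subunits of AMP-activated kinase, an energy sensor that inhibits mTORC1. Prkaa1, a catalytic subunit, went from 52.9 ± 4.29 to 59.995 ± 2.96 CPM (log2 fold change 0.18, edgeR adjusted p = 0.559). All 6 fear case libraries were above its control mean. Prkag2, a regulatory subunit, had a log2 fold change of 0.17 (edgeR adjusted p = 0.618).

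Amino acid input reaches mTORC1 through the Rag GTPases on the lysosome, and the 27 genes of that branch had a median of 0.0026. Rragb, a Rag GTPase, went from 73.3 ± 4.77 to 83.2 ± 6.83 CPM, with 4 of 6 fear case libraries above all controls (log2 fold change 0.18, edgeR adjusted p = 0.562). Fnip1, a partner of folliculin in Rag control, had a log2 fold change of 0.15 (edgeR adjusted p = 0.686).

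Downstream, the 13 translation outputs of mTORC1 had a median of -0.016. Eif4ebp1, a translation repressor that mTORC1 inactivates, had the largest difference of the 104 genes. It went from 2.65 ± 0.333 to 1.72 ± 0.359 CPM, with 5 of 6 fear case libraries below all controls, at only 32 to 68 counts per library (log2 fold change -0.62, SE 0.23, edgeR adjusted p = 0.557). Eef2k, the kinase that slows translation elongation, had a log2 fold change of -0.09 (edgeR adjusted p = 0.841). The 12 autophagy, lysosome and metabolic outputs had a median of -0.0031. Rb1cc1, a subunit of the ULK1 autophagy complex, had the lowest adjusted p of the 104. It went from 187 ± 20.6 to 225 ± 24.8 CPM, with 5 of 6 fear case libraries above all controls (log2 fold change 0.27, SE 0.084, edgeR adjusted p = 0.361). Srebf1, a lipogenic transcription factor, had a log2 fold change of -0.17 (edgeR adjusted p = 0.832).

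The 7 mTORC2 outputs had a median log2 fold change of -0.09, with 3 positive and 4 negative. Sgk3, a kinase related to AKT, went from 15.3 ± 1.71 to 12.1 ± 3.62 CPM (log2 fold change -0.33, SE 0.15, edgeR adjusted p = 0.674). It was -0.50 without fear case 6 (adjusted p = 0.0830), the library with 18.5 CPM, and -0.012 with the choroid plexus covariate (adjusted p = 0.993). Foxo1, a transcription factor that AKT keeps out of the nucleus, had a log2 fold change of -0.16 (edgeR adjusted p = 0.701).

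**Figure D5:**
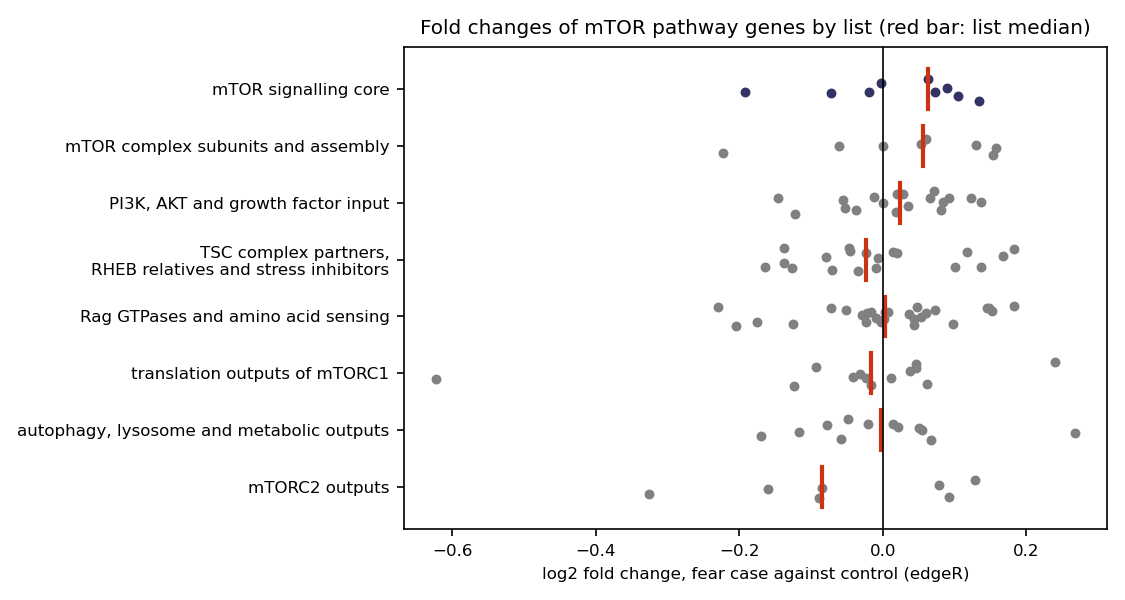
Log2 fold change (x axis, fear case against control) of each tested gene in the mTOR core and 7 surrounding pathway lists, with red bars at the list medians. All 8 medians lie between -0.09 and 0.06, and none of the points passed the test.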

How the data were processed

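Polyribosomal RNA of 12 hippocampus samples was sequenced as 40 bp read pairs, per the labels' protocols. The authors deposited whole-number counts per gene symbol, not normalized, made with cutadapt, TopHat, Bowtie and HTSeq on mm10 per the submitters' processing notes. Neither labels nor files name versions, annotation or strand setting. Summary lines were kept out of library sizes: reads on no gene made up 25.5% to 33.3% of counts, and ambiguous reads 0.453% to 0.550%. Set aside as not unique were 67.8 M to 115 M alignment records per library, which lowers the counts of genes that have close copies.

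The test was edgeR 4.0.16 under R 4.3.3 (filterByExpr by group with minimum count 10 and minimum total 15, TMM, quasi-likelihood test without covariates, Benjamini-Hochberg adjustment over 14564 genes, threshold 0.05). The SE is the log2 fold change over the square root of F, and intervals are at 95%. Log2 CPM used a prior count of 2. DESeq2 1.42.0, limma 3.58.1, other scalings, no filter, a replicate block, a choroid plexus covariate (mean log2 CPM of 12 markers) and leaving out each library were alternatives. The fit was tested on simulated data. At the lowest depth of 18.6 M counts, 1 CPM is 18.6 counts before the TMM scaling.

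Positions and lengths are from GENCODE release M21 (GRCm38, the assembly of mm10), which gave a length for 23334 of 24421 symbols. No pair of libraries was identical among 66, and the lowest chi-square per degree of freedom was 8.08. The members, lists and tests were chosen with earlier results of these data known. Genes named beyond the 9 were the 2 with the lowest p in each pathway list, and the 3 most correlated with Mtor.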

Additional observations from a re-analysis of the deposited data

Results flagged for a closer look

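In 58 groups of 6 libraries (values of the 9 genes, the 6 ratios and the 14 named pathway genes), 5 had a library far from the others, judged by its gap to the nearest library over the range of the group (critical value 0.625). Chance alone gives about 5% of such groups. Tsc2 in control 6 stood at 123.5 CPM, with the next control at 101.5 CPM. Rps6kb2 in control 3 stood at 5.315 CPM, below the next control at 6.878 CPM. The log2 count ratio of Akt1s1 to Rptor in control 6 was -0.9485, with the next control at -0.4558. Phlpp1 in fear case 1 stood at 150.3 CPM, with the next fear case library at 124.8 CPM. Eef2k in control 5 stood at 19.96 CPM, below the next control at 22.63 CPM.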

How the results depend on the processing

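Under all 20 alternatives 0 of the 9 genes were called, and 0 of the 104 pathway genes. The median log2 fold change of the 9 stayed between 0.02 and 0.07, and 5 to 7 of them were positive. The count over all genes, 15, was 33 with library totals only, 37 with no filter on low counts, 61 with DESeq2 and 5 with the choroid plexus score as covariate. Leaving out 1 library gave 9 to 128 calls, with 9 without control 3 or fear case 2 and 128 without fear case 6. Library totals only moved the median of all genes to -0.038, so 0.03 for the 9 genes is to be read against it. Rheb turned to 0.0048 with the choroid plexus covariate. Leaving out 1 library, Rheb ranged from -0.039 to 0.0041, Tsc1 from -0.029 to 0.033 and the log2 ratio of Rptor to Rictor from -0.054 to 0.034, so these signs are not fixed; the cause was not tested. Mtor was 0.23 with the covariate (adjusted p = 0.707), over a range of 0.08 to 0.23. Without control 6, Rptor was the only member under any alternative with an unadjusted p under 0.05. The replicate numbers did not pair the libraries: deviations of same-numbered samples had r from -0.17 to 0.047, and 2 of 6 controls and 0 of 6 fear case libraries were closest to their own number. With the replicate block 18 genes were called, 0 of them members, and no ratio passed. Depth limits the genes with few counts, among them Rps6kb2 (74 to 201 counts per library) and Eif4ebp1 (32 to 68).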

Other observations

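The log2 fold change over all genes moved with transcript length. Of 13349 tested genes with a protein-coding transcript, split into 5 equal bins, the median went from -0.065 in the shortest bin (312 to 1898 bases) through intermediate values in order to 0.047 in the longest (from 5304 bases). Without fear case 6 these medians were -0.031 and 0.023. Mtor, Rptor, Rictor, Tsc1, Tsc2 and Rps6kb1 are in the longest bin, and Rheb and Akt1s1 in the shortest. Within the longest bin, Mtor was above 82.9% of the genes, Rictor above 73.0%, Rptor above 67.6% and Tsc1 above 31.6%. Rheb was above 63.1% of the shortest bin and Akt1s1 above 48.1%. Rps6kb2, in the next to longest bin, was above 11.5% of it. How far length bears on the differences between members was not tested.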
